A study of Mus musculus with 20 samples.

Results

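Solute carrier genes (Slc genes) encode the membrane proteins that move amino acids, sugars, ions, metals, metabolites and nucleotide sugars across the cell membrane and the membranes of organelles. In mouse nephron progenitor cells (NPCs), 71 of them were examined, out of 16691 genes whose normalized counts averaged at least 10. A gene was included if one of 7 deposited comparison tables paired its Ensembl identifier with a symbol that starts with Slc and if it reached that mean over 20 libraries. The tables give symbols only to the 4316 genes they list, out of 31130, so every member had already differed in one of the authors' comparisons and solute carrier genes with no such difference could not be named. Of 74 Slc identifiers in the tables, 71 reached the mean. Slc45a1 lay just outside at 7.71 and Slc6a21 just inside at 12.3 normalized counts.

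The members were thus chosen by measured values, which decides what can be tested. One table lists genes that differ between high and low CHIR in CTRL cells at an adjusted p under 0.05, and it names 51 of the 71. The other 2 tables with Slc symbols compare α-catenin KO or QCKO with CTRL in high CHIR, at an unadjusted p under 0.05, and each names 21. There were 39 members named only by the CTRL table, 12 named by it and by a knockout table, and 20 named only by a knockout table. CTRL values in high against low CHIR, and knockout against CTRL values in high CHIR, are therefore given below as descriptions with no test. The responses to CHIR inside the knockouts were measured in libraries that the CTRL table did not use, although for the 12 members also named by a knockout table the high CHIR knockout libraries entered the choice. For these 12, passing or not passing a test on libraries that helped choose them is a description. Slc9a3r1 and Slc4a1ap carry Slc symbols without encoding transporters.

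NPCs are the Six2-expressing mesenchymal cells that self-renew or form nephrons, and Wnt input through β-catenin starts the change to an epithelium. CHIR inhibits the kinase GSK3, which marks β-catenin for destruction, so high CHIR imitates a strong Wnt signal. The epithelia that NPCs form later reabsorb most filtered solutes through transporters of the Slc families. In the mature kidney different nephron segments are known for different transporters.

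The cells were primary NPCs of embryonic mouse kidneys (E16.5), from crosses of Rosa26 Cas9-eGFP with SWR/J mice, and all groups carried Cas9-eGFP. Each culture received mCherry mRNA with sgRNAs against GFP (CTRL), Ctnna1 (α-catenin KO), Ctnnb1 (β-catenin KO) or 4 cadherin genes together (Cdh2, Cdh3, Cdh4 and Cdh11, QCKO). After 48 h CHIR was given for 24 h, at 1.25 µM (low) or 5 µM (high), and mCherry-positive cells were sorted. CTRL and β-catenin KO had 3 libraries in each CHIR condition, and α-catenin KO and QCKO had 2. Libraries with the same replicate number carry the same 1 of 3 dates in their titles, and the step that this date marks is not given. On these dates α-catenin KO (replicates 1 and 3) and QCKO (replicates 2 and 3) overlap only in part. The knockouts are mixtures of edited cells, and whether cultures of 1 date came from separate animals is not given, so p-values measure the spread between these cultures.

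The libraries held 18124772 to 28472412 reads assigned to genes, and the 71 members took between 0.0701% and 0.174% of the normalized counts. The lowest share belonged to CTRL high CHIR replicate 2, and the other CTRL libraries lay between 0.107% and 0.124%. In α-catenin KO the mean Ctnna1 count was 40.4% of the CTRL mean under low CHIR, and under high CHIR it was 47.4%. In QCKO, Cdh11 was at 50.0% and 40.2% of CTRL and Cdh2 at 63.5% and 77.0%. Cdh3 was at 127% and 104% and Cdh4 at 95.2% and 105%, so transcript levels show a loss for only part of the 4 targeted cadherins. Transcript counts do not measure protein. By immunofluorescence the paper reports no detectable Cdh2 or Cdh11 and removal of most Cdh3 and Cdh4 with single sgRNAs. It reports similar efficiencies for sgRNAs in combination. Ctnnb1 is listed by none of the tables, and its level was not analysed here. In CTRL, Six2 had 1375 ± 377 normalized counts in low CHIR and 72.4 ± 10.3 in high CHIR (mean ± SD, n = 3 each). In β-catenin KO it had 993 ± 232 and 558 ± 210. Of 5 measured genes of induced nephrons (of 8 on that list), 5 rose with CHIR in the mean of α-catenin KO and QCKO, and of 7 nephron progenitor genes 7 fell. Tek, the 1 measured gene of 8 endothelial markers, moved with CHIR too, from 0 to 7.64 normalized counts in low CHIR to 89.7 to 383 in high CHIR when β-catenin KO was left aside. Of the ureteric markers 4 of 10 were tested, of which Gata3 and Hoxb7 rose and Tfap2b and Krt8, with log2 differences of -1.54 and 0.24, did not pass the test. Both measured genes of 10 stromal markers fell, Tcf21 by 2.91 on the log2 scale and Meis1 by 1.13, as the solute carrier fallers did. No leukocyte marker had an identifier. The part of other cells in the solute carrier values was not tested, and in bulk RNA fewer cells of a kind and less RNA per cell cannot be told apart.

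In the mean of α-catenin KO and QCKO, 25 of the 51 solute carrier genes named by the CTRL table responded to CHIR, 16 upward and 9 downward. The call required an adjusted p under 0.05 and a log2 fold change over 0.5 in limma on log2(normalized count + 1), with adjustment over all 16691 genes. Over all those genes 10.7% were called, 5.08% upward and 5.6% downward. Of 2365 other genes in the CTRL table, 51.6% were called, against 49.0% of the 51 members, so the solute carrier share was close to that of genes chosen the same way. Of the 39 members that the CTRL table alone named, 24 were called (61.5%), and the remaining call was Slc38a4. All 23 members that were higher in high CHIR in CTRL were also higher in this mean, with a median log2 difference of 1.33 against 1.46 in CTRL, and 27 of the 28 lower ones were lower, with medians of -0.72 and -1.40. Of these 28, the 17 named by the CTRL table alone had medians of -1.28 in this mean and -1.35 in CTRL. The 11 also named by a knockout table had -0.35 and -1.46, and high CHIR libraries of CTRL and the knockouts helped choose them. The median absolute log2 difference was 0.96 over the 51 members, 0.90 over the 2365 other genes of the CTRL table and 0.28 over all genes. Leaving out QCKO high CHIR replicate 2 left 16 calls (7.38% of all genes), and leaving out any other of these 8 libraries left 17 to 19 (6.69% to 8.33%). With the title date as a block there were 31, against 15.8% of all genes: the same 25 and also Slc26a7, Slc25a21, Slc25a37, Slc2a10, Slc44a2 and Slc6a8.

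**Figure D1:**
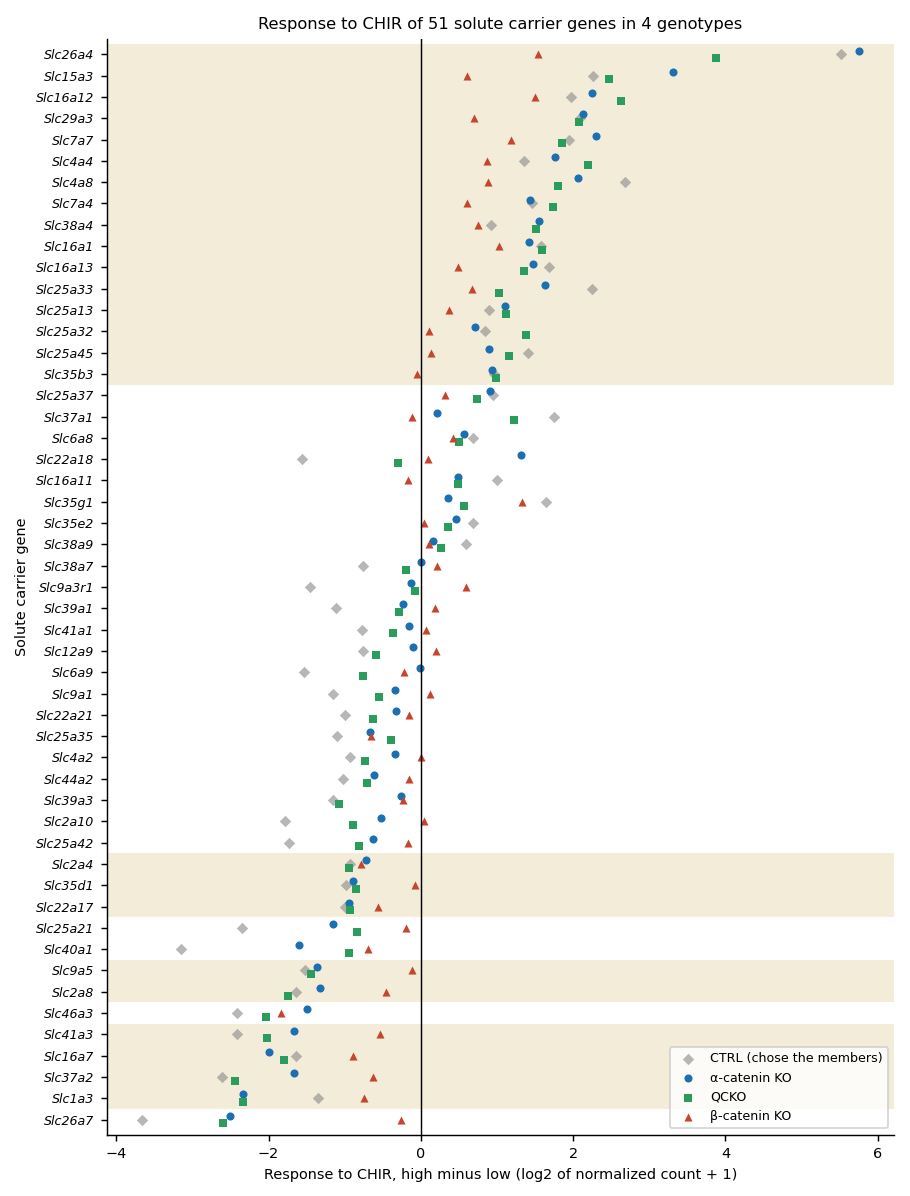
Response to CHIR (high minus low, log2 of normalized count + 1, group means) of the 51 solute carrier genes named by the CTRL table, ordered by the mean of α-catenin KO and QCKO. Grey diamonds are CTRL, which chose the genes, blue circles α-catenin KO, green squares QCKO and red triangles β-catenin KO, and the shaded rows are the 25 genes called in the mean of α-catenin KO and QCKO. Most red triangles lie nearer to 0 than the blue and green symbols of the same gene.

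Considered alone, each adhesion knockout has 2 libraries a side. In α-catenin KO 6 of the 51 were called (4 higher, 2 lower), against 3.35% of all genes (1.53% higher, 1.82% lower). This was 11.8% of the members, below the 21.7% of other genes in the CTRL table, and of the 39 members named by the CTRL table alone 5 were called (12.8%). A block for the title date raised the count to 17, against 6.89% of all genes, and DESeq2 called 12, against 5.24%. In QCKO 10 were called (8 higher, 2 lower), against 3.95% of all genes (1.82% higher, 2.13% lower). This was 19.6% of the members, against 24.9% of other genes in the CTRL table, and of the 39 members 9 were called (23.1%). The block raised the count to 21, against 7.53%, and DESeq2 called 16, against 6.19%. Slc26a4, Slc15a3, Slc29a3 and Slc38a4 rose and Slc1a3 and Slc41a3 fell in both, and Slc16a12, Slc7a4, Slc25a32 and Slc35b3 passed the test in QCKO. For Slc38a4 the high CHIR libraries of α-catenin KO had entered the choice, so its call in that knockout is a description. The count in α-catenin KO was 2 without low CHIR replicate 1, 3 without low CHIR replicate 3 or high CHIR replicate 1, and 5 without high CHIR replicate 3, where 0.995% to 1.65% of all genes were called. In QCKO it was 3 without high CHIR replicate 3 and 4 without any of the other 3 libraries, with 1.46% to 1.58% of all genes called. In simulated data the fit for α-catenin KO recovered 6 of 200 genes given a log2 change of 1, and 127 of 200 given one of 2. The 3 comparisons share their libraries.

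The largest fitted rise among the 51 was in an anion exchanger. Slc26a4 encodes pendrin, which exchanges chloride for bicarbonate or iodide and marks intercalated cells of the mature collecting system. In CTRL all 3 low CHIR libraries had 0 reads, and high CHIR gave 45.4, 65.2 and 30.6 normalized counts, at least 15.5-fold higher against a floor of 3 reads per library. In α-catenin KO it had 1.72 and 0 in low CHIR, against 103 and 74.6 in high CHIR, a ratio of 102 with a 95% counting interval of 27.7 to 849 that covers counting error only. In QCKO it rose from 6.07 and 2.89 to 93.0 and 62.7. The high CHIR libraries of both knockouts lay far above their low CHIR libraries (adjusted p = 1.74e-05 for their mean, limma). Slc4a4, the sodium bicarbonate cotransporter NBCe1 of proximal tubules, had 78.3 and 72.1 normalized counts in low CHIR, against 252 and 264 in high CHIR in α-catenin KO. In QCKO it had 53.8 and 62.7, then 310 and 233. It rose by 1.98 ± 0.46 on the log2 scale (SE, adjusted p = 0.0101, limma), and no library of one condition reached the other. Slc4a8, a sodium-driven chloride bicarbonate exchanger, also rose (1.93 ± 0.43, adjusted p = 0.00713), from 33.6 to 81.0 over the 4 low CHIR libraries to 166 to 224 over the 4 in high CHIR. Slc9a5, a sodium-proton exchanger, was the acid-base member that fell, from 56.0 to 103 down to 22.4 to 36.1 normalized counts. Slc26a7, another anion exchanger, had 45.1 to 132 in low CHIR and 6.04 to 34.8 in high CHIR without overlap, and its adjusted p was 0.0613. With the title date as a block it passed in α-catenin KO, in QCKO and in their mean.

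Pendrin and NBCe1 were the 2 of 24 segment transporters of the mature nephron on a fixed list that had an identifier. Both rose in the mean of α-catenin KO and QCKO. The other 22 were not named by any table and were not analysed here. The summed level of both ran, outside β-catenin KO, between 59.9 and 80.0 normalized counts under low CHIR, against 195 to 403 under high CHIR. In β-catenin KO the sums overlapped, from 45.1 to 201 under low CHIR and from 78.6 to 434 under high CHIR. In replicate order Slc4a4 had 45.1, 197 and 159 there, then 72.8, 282 and 427. Within each replicate number, and so each title date, both genes were higher in high CHIR. The overlap of the sums thus came from the spread between replicates. Neither gene passed the test in β-catenin KO, and the sum was not tested.

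The amino acid carriers moved both ways. Slc38a4, a sodium-coupled neutral amino acid transporter, had 1234 and 1088 normalized counts in low CHIR, against 3871 and 2971 in high CHIR in α-catenin KO. In QCKO it had 1224 and 919, then 2977 and 3085. All 4 high CHIR libraries lay above all 4 low CHIR libraries. The table of α-catenin KO in high CHIR also names this gene, so its calls in α-catenin KO and in the mean are a description. That table did not use the QCKO libraries. The response in QCKO was 2.86-fold (log2 difference 1.51 ± 0.32, adjusted p = 0.0124, limma). Slc7a7, the light chain y+LAT1 that exports cationic amino acids across the basolateral membrane, had 96.4 and 61.1 in low CHIR, against 560 and 261 in high CHIR in α-catenin KO, and 69.4 in both low CHIR and 256 and 252 in both high CHIR libraries of QCKO. It rose 4.23-fold (2.08 ± 0.55, adjusted p = 0.0209), with α-catenin KO high CHIR replicate 1 the highest. Slc7a4, a relative of the cationic amino acid transporters, rose 2.99-fold (adjusted p = 0.00227). Slc1a3, the glutamate transporter GLAST, had 123 and 152 in low CHIR, against 19.3 and 35.3 in high CHIR in α-catenin KO, and 181 and 105, then 24.1 and 29.0 in QCKO. It fell in every pairing of low with high CHIR libraries, by 2.34 ± 0.34 on the log2 scale (adjusted p = 0.000217). Slc6a8 (creatine), Slc6a9 (glycine), Slc38a7 and Slc38a9 did not pass the test, with differences between -0.39 and 0.54. For Slc6a9 and Slc38a7, which knockout tables also name, this is a description. On a list of 10 amino acid transporters known to follow amino acid shortage, only Slc38a2 and Slc6a9 had identifiers, and neither passed the test. Knockout tables name both, so their log2 differences of 0.14 and -0.39 are a description. Of 18 other genes of that response Phgdh and Sesn2 had an identifier, and Sesn2 fell (log2 difference -1.11 ± 0.19, adjusted p = 0.00102, limma).

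Slc15a3 and Slc29a3 encode lysosomal carriers, of histidine and small peptides and of nucleosides. Slc15a3 had 10.3 and 18.7 normalized counts in low CHIR, against 126 and 171 in high CHIR in α-catenin KO, and 17.3 and 27.0, then 170 and 90.7 in QCKO. It rose 7.41-fold (2.89 ± 0.41, adjusted p = 0.000174). Slc29a3 had 374 and 464, then 2183 and 1542 in α-catenin KO, and 453 and 480, then 1678 and 2325 in QCKO. It rose 4.31-fold (2.11 ± 0.25, adjusted p = 4.16e-05). In neither gene did a low CHIR library of these knockouts reach a high CHIR library.

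Among monocarboxylate transporters, 3 rose, 1 fell and 1 did not pass the test. Slc16a1 encodes MCT1, which carries lactate and pyruvate with a proton. It had 588 and 788, then 1467 and 2263 normalized counts in α-catenin KO, and 682 and 826, then 2301 and 2233 in QCKO, a rise of 2.84-fold (1.51 ± 0.46, adjusted p = 0.0438). Slc16a7 encodes MCT2, the carrier of the same substrates with higher affinity, and moved the opposite way. It had 255 and 178, then 81.2 and 34.3 in α-catenin KO, and 131 and 152, then 27.8 and 57.0 in QCKO, a fall of 1.90 ± 0.43 on the log2 scale (adjusted p = 0.00901). Slc16a12, a creatine transporter, rose from 0.867 to 11.2 over the low CHIR libraries to 21.7 to 63.1 over those in high CHIR (adjusted p = 0.00242). Slc16a13 rose 2.67-fold (adjusted p = 0.0466), and Slc16a11 had a log2 difference of 0.49.

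Of 8 mitochondrial carriers 4 rose and 4 did not pass the test. Slc25a13, the aspartate-glutamate carrier citrin, had 435 to 681 normalized counts over the 4 low CHIR libraries and 1081 to 1331 over the 4 high CHIR libraries (2.16-fold, adjusted p = 0.00885). Slc25a32, a mitochondrial folate carrier, rose 2.07-fold (adjusted p = 0.00568). Slc25a33, a pyrimidine nucleotide carrier, and Slc25a45 rose 2.52-fold and 2.03-fold (adjusted p = 0.0417 and 0.0458). Slc25a37, mitoferrin 1, which brings iron into mitochondria, had 288 to 420 in low CHIR and 551 to 766 in high CHIR without overlap, and its adjusted p was 0.0785, while it passed with the title date as a block. Slc25a21, Slc25a35 and Slc25a42 had lower values in high CHIR and did not pass the test (log2 differences of -0.99, -0.53 and -0.72), although Slc25a21 passed as a fall with the title date as a block. Knockout tables also name Slc25a21 and Slc25a42, so the results of these genes are a description.

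Of 5 sugar transporters 3 fell and the other 2 did not pass the test. Slc37a2, an exchanger of glucose 6-phosphate and phosphate, had 160 and 109, then 59.3 and 28.2 in α-catenin KO, and 97.2 and 140, then 26.6 and 15.9 normalized counts in QCKO (log2 difference -2.05 ± 0.52, adjusted p = 0.0163). Slc2a4, the insulin-responsive glucose transporter GLUT4, had 1050 to 1251 in the low CHIR libraries and 497 to 765 in high CHIR (-0.83 ± 0.18, adjusted p = 0.00711). Slc2a8, GLUT8 of intracellular membranes, fell from 39.6 to 70.4 down to 8.45 to 27.1 (adjusted p = 0.0294). Slc2a10 (GLUT10) had a log2 difference of -0.71 and passed only with the title date as a block, which is a description because the α-catenin KO table also names it. Slc37a1, another sugar phosphate exchanger, was higher in high CHIR in CTRL. In QCKO it went from 10.4 and 10.6 to 27.8 and 24.3 without overlap, and in α-catenin KO the conditions overlapped, for a mean log2 difference of 0.72 that did not pass the test. Of 18 glycolysis genes on a fixed list only Hk1 and Pfkm had an identifier, and neither passed the test (log2 differences of 0.27 and -0.42).

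Of 3 carriers of magnesium or iron 1 fell. Slc41a3, a magnesium transporter of mitochondria, had 159 and 155, then 39.9 and 59.5 normalized counts in α-catenin KO, and 179 and 224, then 47.1 and 49.6 in QCKO. It fell by 1.85 ± 0.23 on the log2 scale (adjusted p = 6.59e-05), with a wide gap between conditions. Slc41a1, a magnesium exporter, and Slc40a1, the iron exporter ferroportin, had log2 differences of -0.26 and -1.28 and did not pass the test. The zinc importers Slc39a1 and Slc39a3 did not pass it either (-0.26 and -0.67). A knockout table also names Slc41a1 and another names Slc39a1, so the results of these genes are a description. Mt1 and Mt2, the 2 of 3 zinc storage genes with an identifier, encode metallothioneins and rose, Mt1 by 3.83 ± 0.33 on the log2 scale (adjusted p = 1.63e-06) from 199 to 332 normalized counts in low CHIR to 2898 to 4814 in high CHIR.

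In the Golgi and endoplasmic reticulum, Slc35b3 supplies the sulphate donor PAPS and Slc35d1 carries UDP-sugars for glycosaminoglycan chains. Slc35b3 rose from 340 to 429 normalized counts in low CHIR to 640 to 934 in high CHIR (1.95-fold, adjusted p = 0.00185). Slc35d1 fell from 555 to 773 down to 311 to 446 (log2 difference -0.87 ± 0.26, adjusted p = 0.0367). The 4 low and 4 high CHIR libraries did not overlap in either gene. Among organic ion transporters Slc22a17 fell (-0.94 ± 0.26, adjusted p = 0.0277), and Slc22a21 had a log2 difference of -0.47 and did not pass the test. The α-catenin KO table also names Slc22a21, so its result is a description.

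**Figure D2:**
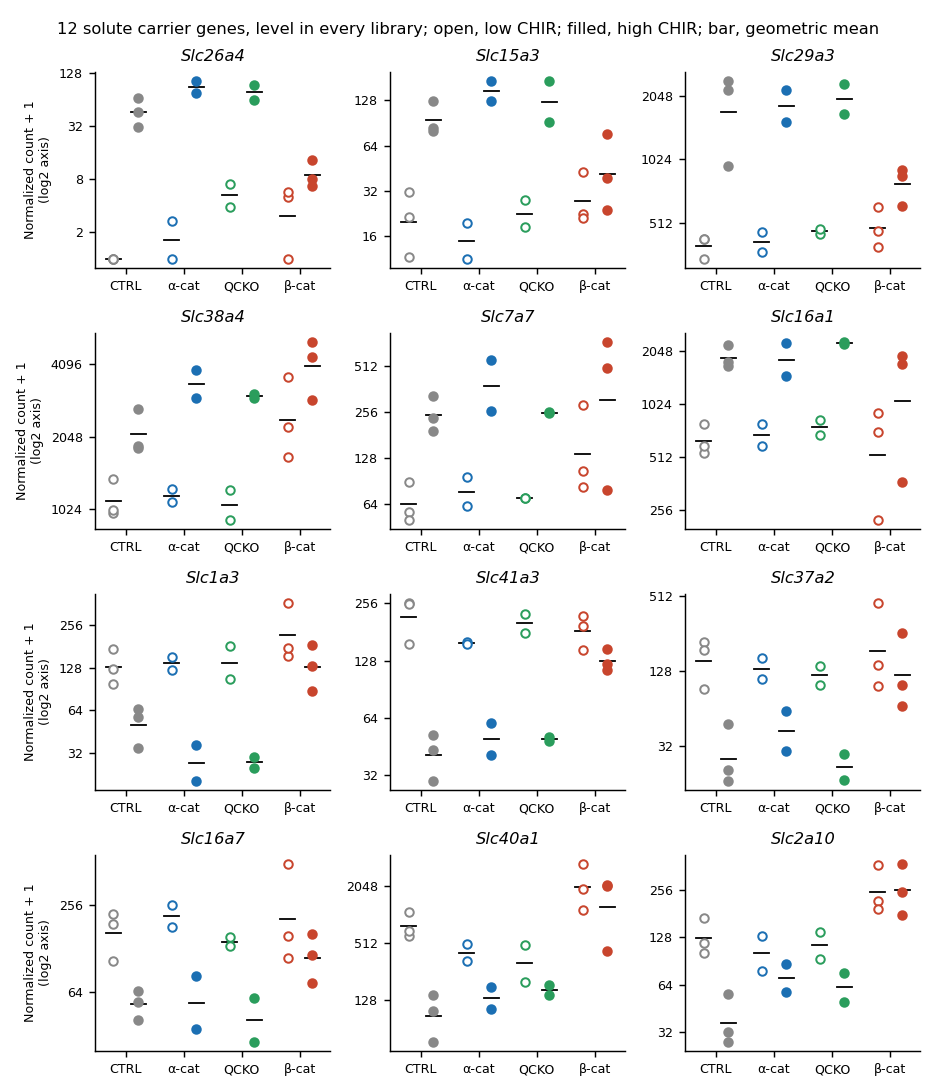
Normalized count + 1 (log2 axis) of 12 solute carrier genes in each of the 20 libraries, by genotype (α-cat, α-catenin KO; β-cat, β-catenin KO). Open circles are low CHIR, filled circles high CHIR and black bars geometric means. Slc26a4 in β-catenin KO stays at or below 12.2 normalized counts in high CHIR, where the α-catenin KO and QCKO libraries have 62.7 to 103, and Slc40a1 in β-catenin KO lies above α-catenin KO and QCKO in both conditions.

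TCF/LEF factors, the DNA-binding partners of β-catenin, recognize a core that reads CTTTGA. The promoter table of RefSeq (GRCm38.p6, 250 bases before to 50 after each start) held 55 of the 71 members with 72 windows. The letters CTTTGA, on either strand, stood in 8 of these windows (11.1%), and in 16% of all 32851 windows of the table. Of 20 windows of members that rose in the mean of α-catenin KO and QCKO 4 held them, and of 7 windows of members that fell none did. A match is a description of letters and not a binding site. The windows of risers that hold the letters are shown with them in capitals. They are given as the 30 bases around the match where the window lies partly or wholly inside a gene record. Otherwise they are the 250 bases before the start. For Slc7a7 all 250 bases before this start lie inside the gene record, and its other windows hold no match. The window of Slc1a3, which holds none, is shown too.
Slc26a4, chr12:31560012-31560041, minus strand: aacgtcccaccgCTTTGAgtgagagctata
Slc16a12, chr19:34747520-34747549, minus strand: acagcttctactCTTTGAccatgcagggac
Slc7a7, chr14:54418165-54418194, minus strand: aaaatgaCTTTGAacttctgaccctcatgt
Slc25a33, chr4:149774268-149774517, minus strand: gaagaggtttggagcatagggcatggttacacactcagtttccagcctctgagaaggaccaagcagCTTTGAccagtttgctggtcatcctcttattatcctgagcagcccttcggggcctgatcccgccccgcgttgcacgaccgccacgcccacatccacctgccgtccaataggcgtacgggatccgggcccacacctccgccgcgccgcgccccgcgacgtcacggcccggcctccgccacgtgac
Slc1a3, chr15:8710808-8711057, minus strand: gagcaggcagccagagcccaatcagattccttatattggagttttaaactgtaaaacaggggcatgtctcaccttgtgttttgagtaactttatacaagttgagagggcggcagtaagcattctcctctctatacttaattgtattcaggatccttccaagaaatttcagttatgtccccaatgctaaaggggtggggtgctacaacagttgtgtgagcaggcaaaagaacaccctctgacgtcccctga

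In β-catenin KO, no solute carrier gene passed the test of high against low CHIR. None of the 7 tables used β-catenin KO libraries, so all 71 members were counted, and limma called 0 of 71 against 0.018% of all genes. At an unadjusted p under 0.05 there were 8 of 71 in limma (11.3%), where 4.44% of all genes had such a p. The edgeR and DESeq2 tests on recovered reads also called 0 members, with 12 and 14 at an unadjusted p under 0.05 (16.9% and 19.7%, against 4.77% and 5.14% of all genes). Of the 23 members higher in high CHIR in CTRL 20 were higher in β-catenin KO, with a median log2 difference of 0.61. Of the 28 lower ones 20 were lower, with a median of -0.18. Among these 28, the CTRL table alone named 17, of which 16 were lower in β-catenin KO, with a median of -0.54. Only 4 of the 11 that a knockout table also names were lower, with a median of 0.06. High CHIR libraries of CTRL, α-catenin KO or QCKO helped choose these 11. The lowest adjusted p was that of Slc2a4, GLUT4, at 0.492. It had 1337, 921 and 1099 normalized counts in low CHIR, against 860, 665 and 463 in high CHIR, and every high CHIR library was below every low CHIR library. The response was smaller in β-catenin KO than in the mean of α-catenin KO and QCKO for 46 of the 51 members of the CTRL table. In simulated data the fit for the β-catenin KO response recovered 38 of 200 genes given a log2 change of 1, and 147 of 200 given one of 2.

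The difference between the responses was tested directly. Subtracting the mean response of α-catenin KO and QCKO from that of β-catenin KO, limma called 0 of 51 members, against 1.01% of all genes and 6.68% of the other genes in the CTRL table. At an unadjusted p under 0.05 there were 9 of 51 (17.6%), against 8.98% of all genes. The edgeR test called 0 as well and DESeq2 called 5, against 2.44% of all genes. Each had 11 members at an unadjusted p under 0.05 (21.6%, against 9.12% of all genes in edgeR and 9.62% in DESeq2). With the title date as a block 6 of 51 were called, against 3.13% of all genes: Slc26a4, Slc15a3, Slc29a3 and Slc35b3, whose rise was smaller in β-catenin KO, and Slc41a3 and Slc9a5, whose fall was smaller. Without the block, the difference was -3.28 ± 0.81 for Slc26a4, with the lowest adjusted p of 0.0704. Leaving out β-catenin KO low CHIR replicate 1 or high CHIR replicate 2 gave 1 call each, against 1.49% and 1.24% of all genes. In simulated data for this contrast 0 of 200 genes given a log2 change of 1 were recovered, and 105 of 200 given one of 2.

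The levels reached in high CHIR did differ. Against the mean of α-catenin KO and QCKO in high CHIR, β-catenin KO had 5 of the 51 members higher and 6 lower, in all 21.6% of the members, against 5.76% of all genes (4.06% higher, 1.71% lower) and 24.4% of the other genes of the CTRL table. Of the 39 members named by the CTRL table alone 10 were called (25.6%), 4 higher and 6 lower. With the title date as a block the count was 19, against 10.8% of all genes. Without β-catenin KO high CHIR replicate 1 it was 6 (2.97% of all genes), and without α-catenin KO or QCKO high CHIR replicate 3 it was 7 each (3.19% and 3.24%). Of the members that were lower in high CHIR in CTRL, 27 of 28 were higher in β-catenin KO, and of those that were higher in CTRL 19 of 23 were lower. These values share the high CHIR libraries with the responses above.

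The 6 lower members were all risers. Slc26a4 had 5.78, 12.2 and 6.94 normalized counts in β-catenin KO in high CHIR, below each of the 4 α-catenin KO and QCKO libraries (62.7 to 103). The means were 8.30 ± 3.42 (SD, n = 3) and 83.3 ± 18.1 (n = 4), a log2 difference of -3.22 ± 0.57 (SE, adjusted p = 0.00327). Slc4a8 had 27.7, 75.4 and 75.5 against 166 to 224 (adjusted p = 0.0265). Slc15a3 had 23.1, 75.4 and 38.2 against 90.7 to 171 (adjusted p = 0.0303). Slc29a3 had 617, 910 and 856 against 1542 to 2325 (log2 difference -1.28 ± 0.27, adjusted p = 0.0104). Slc35b3 had 307, 423 and 407 against 640 to 934, and Slc25a32 had 139, 108 and 140 against 188 to 355 (adjusted p = 0.00531 and 0.0386). In all 6 the libraries of the sides did not overlap.

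The 5 higher members carry iron, glutamate, sugars or magnesium. Slc40a1, ferroportin, had 422, 2090 and 2076 normalized counts in β-catenin KO in high CHIR, against 173, 99.8, 182 and 141 in α-catenin KO and QCKO, a log2 difference of 3.07 ± 0.55 (adjusted p = 0.0034). β-catenin KO replicate 1 was the lowest of its 3 libraries and still above all others. Slc1a3 had 186, 87.6 and 130 against 19.3 to 35.3 (2.25 ± 0.37, adjusted p = 0.00155). Slc37a2 had 254, 65.4 and 97.1 against 15.9 to 59.3 (adjusted p = 0.0482), with replicate 1 the highest. Slc2a10, GLUT10, had 375, 248 and 178 against 48.6 to 85.0, a log2 difference of 1.96. The α-catenin KO table names it too, as higher than CTRL in high CHIR, so its values are a description. Slc41a3 had 121, 146 and 113 against 39.9 to 59.5 (1.36 ± 0.25, adjusted p = 0.00405).

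**Figure D3:**
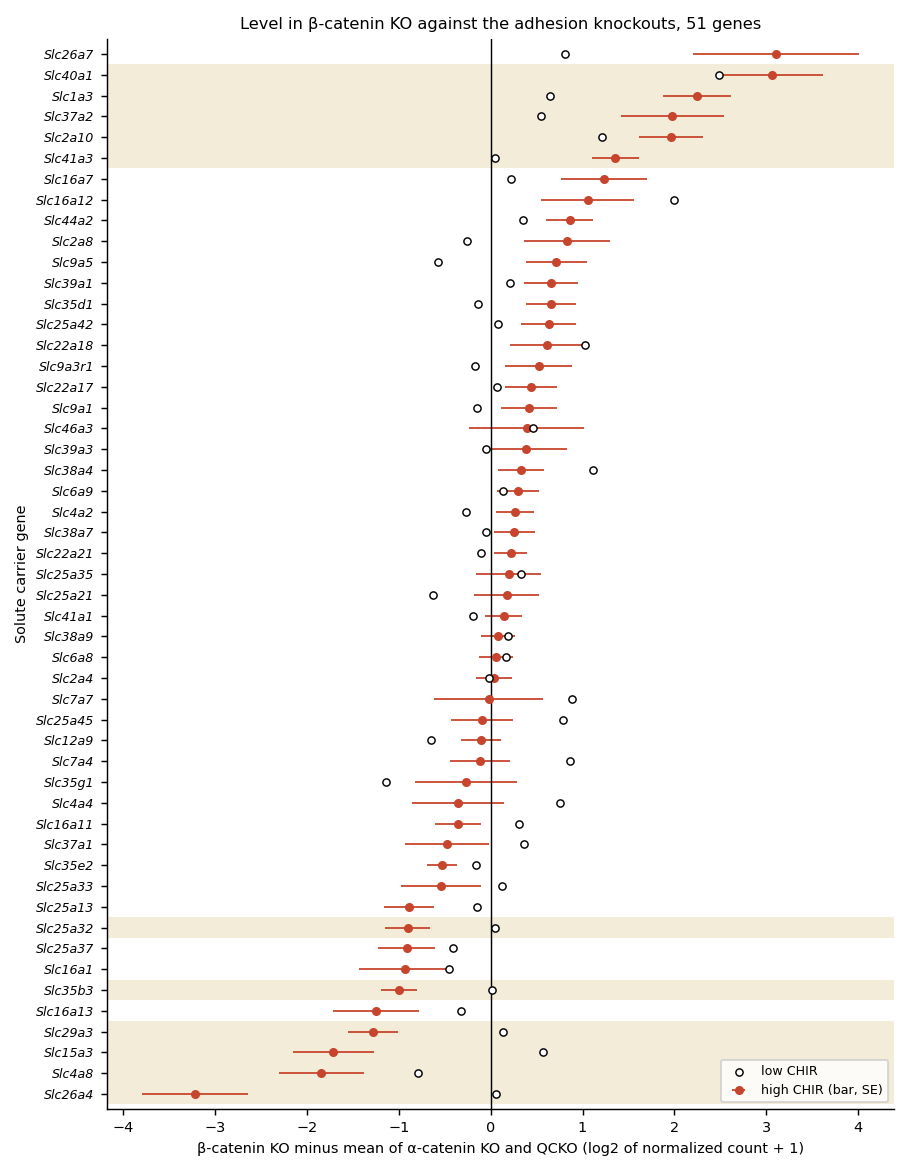
Level in β-catenin KO minus the mean of α-catenin KO and QCKO (log2 of normalized count + 1) for the 51 solute carrier genes of the CTRL table, in high CHIR (red, bar SE) and low CHIR (open circles). The 11 shaded genes passed the test in high CHIR, and the low CHIR circles of Slc26a4, Slc29a3, Slc35b3 and Slc41a3 are 0.13 or nearer to 0.

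In low CHIR the same comparison called 0 of 51 members in limma, against 0.144% of all genes. At an unadjusted p under 0.05 there were 8 of 51 (15.7%), against 10.4% of all genes. It called 3 with the title date as a block, against 0.941% of all genes (Slc40a1, Slc2a10 and Slc38a4, all higher in β-catenin KO), 2 in edgeR (0.623% of all genes) and 4 in DESeq2 (2.16%), and 2 without β-catenin KO low CHIR replicate 1 (0.611%). Slc40a1 had 1149, 3546 and 1927 normalized counts in β-catenin KO, 495 and 327 in α-catenin KO and 487 and 198 in QCKO. The log2 difference was 2.49 ± 0.55 with an adjusted p of 0.0931 in limma, and the libraries did not overlap. In CTRL low CHIR this gene had 1087, 611 and 683, also above the α-catenin KO and QCKO libraries. For Slc38a4 the β-catenin KO libraries had 1681, 3645 and 2250 against 919 to 1234 (1.11 ± 0.25, adjusted p = 0.0954), and for Slc2a10 they had 366, 217 and 193 against 77.2 to 138. The 3 β-catenin KO libraries differed in markers of induction in both conditions. Wnt4 had 30.1, 831 and 634 normalized counts in low CHIR, where CTRL had 41.1 to 72.6, and 252, 2387 and 1200 in high CHIR, where CTRL had 4156 to 5401. Lef1 had 62.3, 660 and 532, then 93.6, 677 and 1020. Replicates 2 and 3 thus stood above CTRL in low CHIR, and replicate 1 was the lowest in both. The part of this split in the low and high CHIR values was not tested beyond the counts without single libraries.

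A further set stood out in CTRL. Of the 12 members named by the CTRL table and by a knockout table, 11 were lower in high CHIR in CTRL, with a median log2 difference of -1.46, and had median differences of -0.16 (α-catenin KO) and -0.59 (QCKO). None of the 11 was called in α-catenin KO, in QCKO or in their mean without the block, and with it Slc25a21 and Slc2a10 passed in the mean (the knockout high CHIR libraries helped choose them, so this is a description). The genes given here were picked after their values were seen. Slc9a3r1 encodes the scaffold NHERF1, which holds transporters at the apical membrane and is not itself a carrier. It had 477, 589 and 521 normalized counts in CTRL low CHIR and 339, 71.6 and 288 in CTRL high CHIR. In high CHIR it had 502 and 518 in α-catenin KO, 980, 818 and 768 in β-catenin KO, and 588 and 804 in QCKO. All 7 knockout libraries lay above the 3 CTRL libraries. Slc6a9, the glycine transporter GLYT1, had 24.9, 24.6 and 27.4 in CTRL high CHIR, and 67.0, 57.5, 68.8 and 52.4 in α-catenin KO and QCKO. Slc25a21, the mitochondrial oxodicarboxylate carrier, had 11.3, 6.41 and 12.5 in CTRL and 30.9 to 53.3 in these knockouts. For Slc6a9 the 3 CTRL high CHIR libraries were close together, while for Slc25a21, Slc9a3r1 and Slc39a1 replicate 2 was the lowest of them. Without that library the CTRL response of Slc9a3r1 was -0.75 in place of -1.46, and that of Slc39a1 was -0.65 in place of -1.12, while that of Slc25a21 was -2.08 in place of -2.35.

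**Figure D4:**
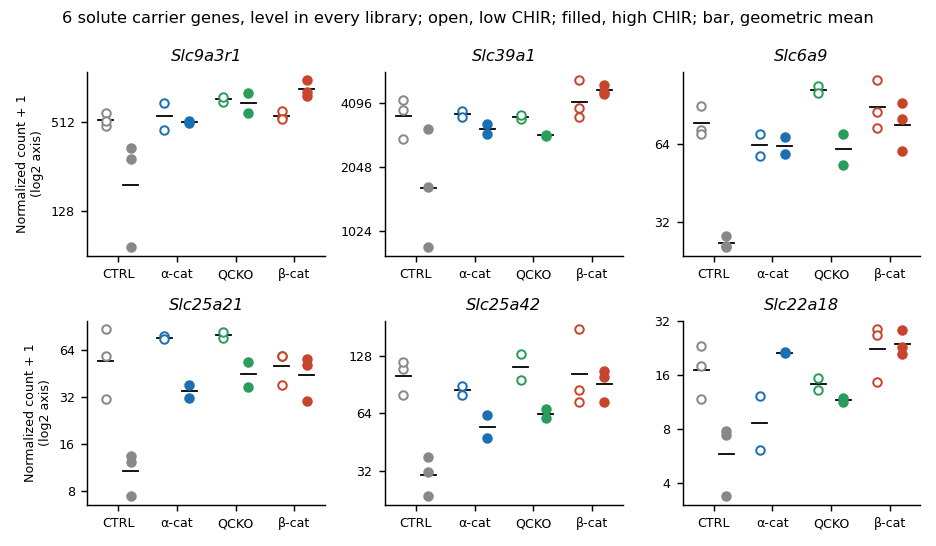
Normalized count + 1 (log2 axis) in each of the 20 libraries for 6 solute carrier genes named by the CTRL table and by a knockout table (α-cat, α-catenin KO; β-cat, β-catenin KO). Open circles are low CHIR, filled circles high CHIR and black bars geometric means. The filled CTRL circles are the lowest high CHIR values of Slc9a3r1, Slc6a9, Slc25a21, Slc25a42 and Slc22a18, and 1 CTRL library of Slc39a1 reaches the knockouts.

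The knockout tables named members that were mostly higher in the knockouts. Of 21 members in the α-catenin KO table, 20 were higher than CTRL in high CHIR (95.2%), with a median log2 difference of 0.89, while 43.2% of its 1121 other tested genes were higher. Of 21 in the QCKO table, 19 were higher (90.5%), with a median of 0.73, against 47.9% of 1613 other tested genes. These directions come from the contrasts that chose the genes and are given with no test. Both tables shared 10 members. The comparisons use the same CTRL libraries, so their overlap is no separate evidence. CTRL high CHIR replicate 2 was the lowest CTRL library for 15 of the 21 members of the α-catenin KO table and 16 of the 21 of the QCKO table. Without it the medians were 0.65 and 0.59. Its part in the choice of these members was not tested. Members with large values in both, picked after their values were seen, were Slc25a21 (1.70 for α-catenin KO, 2.07 for QCKO), Slc9a3r1 (1.41 and 1.84, or 0.71 and 1.14 without CTRL high CHIR replicate 2) and, of those not named by the CTRL table, Slc35e4 (1.42 and 1.48), an orphan relative of nucleotide sugar transporters. Slc6a21 was the member lower than CTRL in both tables (-1.33 and -1.43), with 18.1, 31.0 and 21.9 normalized counts in CTRL high CHIR and 5.04 to 14.2 in the 4 libraries of these knockouts.

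In low CHIR, which these tables did not use, the 20 members named only by a knockout table were compared with CTRL. The mean of α-catenin KO and QCKO differed for 0 of 20 in limma, as did 0% of all genes. At an unadjusted p under 0.05 there was 1 of 20 (5%), against 0.851% of all genes. Neither edgeR nor DESeq2 called a member, with 0 and 1 at an unadjusted p under 0.05, against 1.11% and 1.17% of all genes. The log2 differences ran from -0.13 to 0.70, with a median absolute value of 0.12 against 0.15 over all genes. In high CHIR the same members had medians of 0.54 (α-catenin KO) and 0.70 (QCKO), values that chose them. Slc35e4 had 54.4, 191 and 55.0 normalized counts in CTRL and 45.6, 98.4, 116 and 84.8 in the knockouts in low CHIR. Slc5a3, the myo-inositol transporter, had 412, 357 and 543 in CTRL and 452, 568, 684 and 471 in the knockouts. The groups overlapped in both genes.

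**Figure D5:**
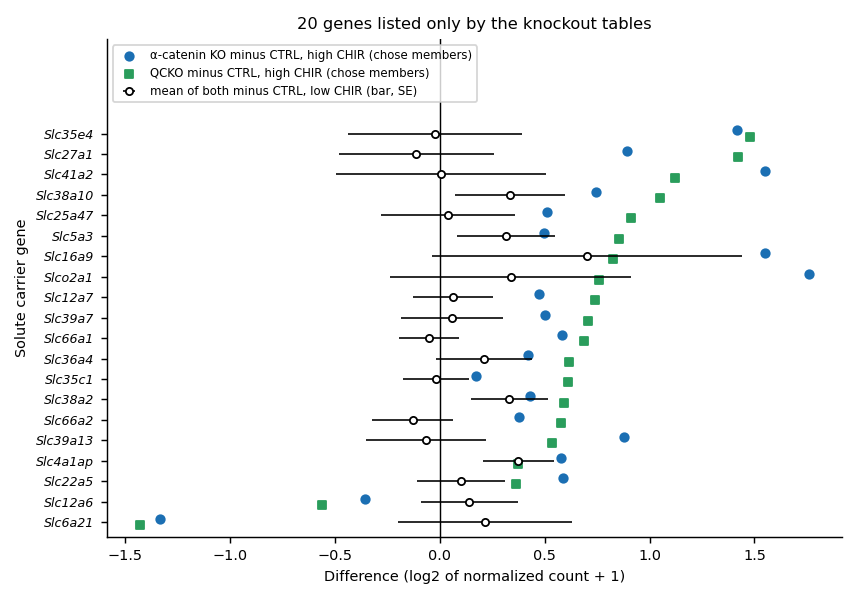
Difference from CTRL (log2 of normalized count + 1) of the 20 solute carrier genes named only by a knockout table, in high CHIR for α-catenin KO (blue circles) and QCKO (green squares), the values that chose them, and in low CHIR for the mean of both (open circles, bar SE). The low CHIR values lie between -0.13 and 0.70, and none passed the test.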

How the data were processed

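Messenger RNA was sequenced in 20 libraries (paired ends, NovaSeq). The authors' processing notes name bcl2fastq, STAR, featureCounts, Salmon and DESeq2 and the builds GRCm38, mm10 and GRCh38, with no roles, and whether counting used strand is not given in the sources used here, so overlapping and antisense genes cannot be told apart. The deposited signal is a normalized count: the authors scaled the reads of each library by 1 factor. All values were whole multiples of a library's smallest step within 0.02 of a read, which gave back reads for edgeR and DESeq2. In 2 libraries the step is so near 1 that this is less telling. The deposited comparison tables were used for symbols and membership. Their fold changes, p-values and 36 per-library columns were not used. Promoter sequences came from RefSeq.

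Members and gene lists were chosen with earlier results of these data known, and the mean of α-catenin KO and QCKO was added after seeing the data. Values were analysed as log2(normalized count + 1), a scale that understates changes of low genes, in R 4.3.3 with limma 3.58.1 (trend, 8 group means, 20 libraries, Benjamini-Hochberg over 16691 genes). Alternatives were edgeR 4.0.16 (quasi-likelihood, TMM), DESeq2 1.42.0 (Wald test), filters, pseudocounts, quantile normalization, a fold threshold, fewer groups, the title date as a block and leaving out libraries. Replicate numbers stand for shared dates in the sample titles, which pair libraries without saying which step was shared. Across genes, libraries of one genotype and date deviated from their groups together, with correlations from 0.0474 to 0.721 between CHIR conditions.

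Genes were named by rule: all called members of a comparison with up to 10 calls, and in others the top 5 in each direction that average at least 100 and do not overlap, the highest and lowest response per role class with at least 3 members of the CTRL table, members at the limit of the mean, and listed genes. Other members are given as examples of their class and were picked after their values were seen. The calling was tested on simulated data. Levels are not compared between genes.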

Additional observations from a re-analysis of the deposited data

How the results depend on the processing

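With the title date as a replicate block, 17 members were called in the α-catenin KO response, 21 in the QCKO response and 31 in their mean. The shares of all genes were 6.89%, 7.53% and 15.8%. In the difference between the β-catenin KO response and that mean response the block gave 6 (3.13% of all genes). For β-catenin KO against the mean of both it gave 19 in high CHIR (10.8%) and 3 in low CHIR (0.941%). DESeq2 called 12 in α-catenin KO, 16 in QCKO, 5 in the difference of responses and 4 in low CHIR, against 5.24%, 6.19%, 2.44% and 2.16% of all genes. In low CHIR edgeR called 2, against 0.623%. With only the groups compared, QCKO had 23 calls, against 10.7% of all genes, and the difference of responses 1 (0.797%), as it had with a pseudocount of 5 (1.11%). With a minimum mean of 100, β-catenin KO in high CHIR had 7 (6.19%), out of fewer members tested.

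Leaving out 1 library gave 2 to 5 calls in α-catenin KO (0.995% to 1.65% of all genes), 3 to 4 in QCKO (1.46% to 1.58%) and 16 to 19 in their mean (6.69% to 8.33%). It gave 0 to 1 for the difference of responses (0.443% to 1.49%), 6 to 12 for β-catenin KO in high CHIR (2.97% to 5.64%) and 0 to 2 in low CHIR (0.00599% to 0.611%). The cause of these shifts was not tested. The β-catenin KO response and the low CHIR comparison with CTRL had 0 calls under every alternative run. For the 24 members named by rule, 654 alternatives were run, of which 551 kept direction and side of the threshold, 96 lost the call, 7 gained one and 0 reversed.

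A group of 2 or 3 libraries limits every value, and members with few reads, such as Slc26a4 in low CHIR, are limited by counting.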
